A study of Mus musculus with 70 samples.

Results

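Igf2, H19, Dlk1, Meg3, Cdkn1c, Grb10, Plagl1, Peg3, Mest and Ndn are imprinted genes of the mouse, and most of them are known to promote or restrain growth before birth. They were chosen by name as 10 of the 23078 genes in the expression table, each found there once, and their levels were followed in cells sorted from the dorsal cortex while it forms. In an imprinted gene the copies inherited from the mother and the father carry different chemical marks, mainly DNA methylation of CpG sites, and in many tissues mostly one copy is transcribed. Igf2, Dlk1, Peg3, Plagl1, Mest and Ndn are known as genes expressed from the paternal copy, and H19, Meg3 and Cdkn1c as genes expressed from the maternal copy. Grb10 is known for using the maternal copy in most tissues and the paternal copy in neurons. The values used here sum both copies, so the parental origin of the transcripts was not measured.

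The 70 libraries came from wild-type mice on a C57Bl/6 background that carried a fluorescent reporter, from embryonic day 10.5 (E10.5) to day 1 after birth, here called PN. Neural stem cells (NSC), which line the ventricle and give rise to the other cells, were sorted as fluorescent cells of the Hes5::GFP line, with 33 libraries at 10 stages. Basal progenitors (BP) are dividing cells that have left the ventricular surface, and newborn neurons (NBN) are their postmitotic progeny. Both were sorted from the Tbr2::GFP line, with 23 BP libraries at 8 stages from E12.5 and 14 NBN libraries at 5 stages from E15.5. The sources used here do not give how BP and NBN were separated within that line, and each of the 23 groups held 2 to 4 libraries. NSC differ from BP and NBN in reporter line as well as in cell type, and these cannot be told apart. Nothing in the labels ties replicates to single animals or to pools, so each p-value reflects the spread among libraries alone, and that spread may be technical.

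The sorted cells carried the markers of their labels, with overlap. Summed over 12 genes of neural stem cells and radial glia, NSC libraries held 1665 to 12415 TPM (the share of a gene among all transcripts, corrected for their length), BP libraries 562 to 1016 and NBN libraries 238 to 516. Summed over 8 genes of basal progenitors, BP libraries held 1016 to 2095 TPM and NSC libraries 157 to 2033, so NSC libraries from later stages also held transcripts of that kind. Summed over 14 genes of postmitotic neurons, NBN libraries held 7407 to 11400 TPM, BP libraries 4899 to 9009 and NSC libraries 445 to 7489. The ranges of all 3 cell types thus overlapped in neuronal transcripts. Summed over 8 genes of red blood cells, the 6 NSC libraries of E10.5 and E11.5 held 1620 to 9516 TPM and the 11 of E13.5 to E15.5 held 14.8 to 223. All 70 libraries are labelled female, yet 46 held at least 5 TPM of Y-linked transcripts in sum. One NSC library of PN has a cell type field that reads basal progenitor, and it was kept as NSC because its title and reporter say so. In such bulk libraries fewer cells of a type and less RNA per cell cannot be told apart, and TPM keep no sequencing depth, so depth is unknown.

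The genes lie on 5 chromosomes in GRCm38 coordinates. Igf2 (chr7:142650766-142666816, minus strand) and H19 (chr7:142575529-142578143, minus strand) are neighbours 72.6 kb apart, and Cdkn1c (chr7:143458339-143461050, minus strand) lies 791.5 kb from Igf2. Dlk1 (chr12:109452823-109463336, plus strand) and Meg3 (chr12:109541001-109571726, plus strand) are neighbours 77.7 kb apart. Peg3 (chr7:6703892-6730431, minus strand) and Ndn (chr7:62346569-62350262, plus strand) lie elsewhere on chromosome 7. Plagl1 (chr10:13060504-13131694, plus strand), Mest (chr6:30723547-30748465, plus strand) and Grb10 (chr11:11930508-12038683, minus strand) stand alone on their chromosomes among the genes described here. H19 and Meg3 are annotated as long noncoding RNAs, and the other genes code for proteins.

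Dlk1, Mest and Grb10 fell together in NSC between the early and the middle stages, as described below, and the 250 bases before 1 annotated start of each are therefore shown. They are taken from RefSeq (GRCm38.p6), they overlap no annotated exon, and capitals mark CpG sites, whose methylation was not measured here. The Grb10 stretch (chr11:12037421-12037670, minus strand) holds 40 CpG sites, a number that 1.31% of 32851 promoter stretches of this length reach. The Mest stretch (chr6:30737800-30738049, plus strand) holds 14, which 29.4% reach, and the Dlk1 stretch (chr12:109452573-109452822, plus strand) holds 8, which 43.0% reach.
Grb10: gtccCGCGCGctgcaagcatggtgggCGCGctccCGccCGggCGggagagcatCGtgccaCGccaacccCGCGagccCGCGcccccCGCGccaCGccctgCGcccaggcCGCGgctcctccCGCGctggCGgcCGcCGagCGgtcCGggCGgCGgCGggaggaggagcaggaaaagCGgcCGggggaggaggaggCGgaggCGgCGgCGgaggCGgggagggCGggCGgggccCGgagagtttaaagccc
Mest: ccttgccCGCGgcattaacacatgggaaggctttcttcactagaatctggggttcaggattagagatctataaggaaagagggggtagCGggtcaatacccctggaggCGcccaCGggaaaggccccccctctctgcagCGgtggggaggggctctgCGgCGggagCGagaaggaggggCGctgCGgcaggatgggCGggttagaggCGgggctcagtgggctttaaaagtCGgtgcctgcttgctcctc
Dlk1: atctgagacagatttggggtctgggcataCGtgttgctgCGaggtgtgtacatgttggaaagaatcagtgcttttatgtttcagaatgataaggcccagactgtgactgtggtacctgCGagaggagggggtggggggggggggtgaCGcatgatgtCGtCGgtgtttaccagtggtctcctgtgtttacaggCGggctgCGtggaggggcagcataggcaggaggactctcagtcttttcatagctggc
These numbers belong to the starts shown: the other annotated Grb10 start (chr11:12027972-12028221, minus strand) has 8 CpG sites upstream, as many as Dlk1, and another Mest start has 7. Igf2 also fell in NSC from early to middle stages, and its annotated starts, with 1 to 22 CpG sites upstream, are not shown. Which start was used was not measured for any of these genes.

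Plagl1 encodes a zinc finger factor known to bind the bases GGGGCCCC, which read the same on both strands. These letters occur in 354 of the 32851 promoter windows of RefSeq (1.08%) and in 1 of 15 windows that belong to 8 of the 10 genes. The match starts 201 bases before the Peg3 start (chr7:6730603-6730630, minus strand) and lies within annotated exons of the neighbouring transcripts Usp29 and Gm27675. It is shown with the matched bases in capitals.
Peg3 stretch: actctgcttgGGGGCCCCtaacactgac
This is a match of letters only, and no binding was measured.

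Igf2 and Meg3 host the microRNAs miR-483 and miR-770, which are not shown here. H19 and Mest are also the hosts of microRNAs, in an exon and an intron respectively. The mature forms are given from RefSeq (GRCm38.p6) with the seed, bases 2 to 8, in capitals, since the host transcripts changed strongly below. No pair of them shares a seed. Mature microRNAs were not measured in these libraries.
miR-675-5p (H19): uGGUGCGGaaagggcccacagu
miR-675-3p (H19): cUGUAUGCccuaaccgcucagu
miR-335-5p (Mest): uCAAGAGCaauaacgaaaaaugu
miR-335-3p (Mest): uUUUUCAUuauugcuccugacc

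Differences are given below as differences of log2(TPM + 1) ± SE, which understate the change of genes with low levels. They were tested with limma over 15508 genes with Benjamini-Hochberg adjustment, and a gene was called changed at an adjusted p below 0.05 and an absolute difference of at least 1. Over time, NSC of E13.5 to E15.5 (mid) were compared with NSC of E10.5 and E11.5 (early), where 6 of the 10 genes were called against 19% of all genes tested. Among these, 5 fell, against 5.26% of all genes, and 1 rose, against 13.7%. NSC of E17.5, E18.5 and PN (late) were compared with mid NSC, where 2 of 10 were called against 11.8% of all genes, 1 higher (9.31% of all genes) and 1 lower (2.45%). BP at the same late and mid stages gave 3 of 10 called, all lower, against 4.71% of all genes called, 3.29% higher and 1.42% lower. NBN of E17.5 to PN against NBN of E15.5 and E16.5 gave 1 of 10, a lower level, against 2.33% of all genes called, 1.27% higher and 1.06% lower. Over time the genes were thus called most often in the earliest step of NSC, as were genes in general.

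Cell types were compared over shared stages with equal weight for each stage. In BP against NSC, 3 of 10 genes were called, all lower in BP, against 8.09% of all genes called, 1.87% higher and 6.22% lower. In NBN against BP, 2 of 10 were called, 1 higher and 1 lower, against 9.42% of all genes called, 4.36% higher and 5.06% lower. In NBN against NSC, 6 of 10 were called, 4 of them lower and 2 higher in NBN, against 19.1% of all genes called, 12.6% lower and 6.51% higher. In the comparison of the change in BP with the change in NSC from mid to late stages, 3 of 10 were called, 1 above 0 and 2 below, against 9.7% of all genes called, 2.86% above and 6.85% below. The median difference of the 10 genes was -1.03 in mid against early NSC, where that of all genes tested was 0.14, and -0.81 in NBN against NSC, where that of all genes was -0.12. Another scaling moved the median of all genes in mid against early NSC to -0.02 (median ratio) or -0.04 (quantile), and none of the calls on the 10 genes was lost under either scaling in any comparison. Comparisons that share NSC or BP libraries are not independent of each other. Beside the cell type differences stand those of other cells' markers: 11 of 11 markers of interneurons and ventral progenitors tested and 6 of 6 of oligodendrocyte precursors were called lower in BP than in NSC, and 6 of 10 microglial markers were called higher in NBN than in NSC. Their part in the differences of the 10 genes was not tested.

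**Figure D1:**
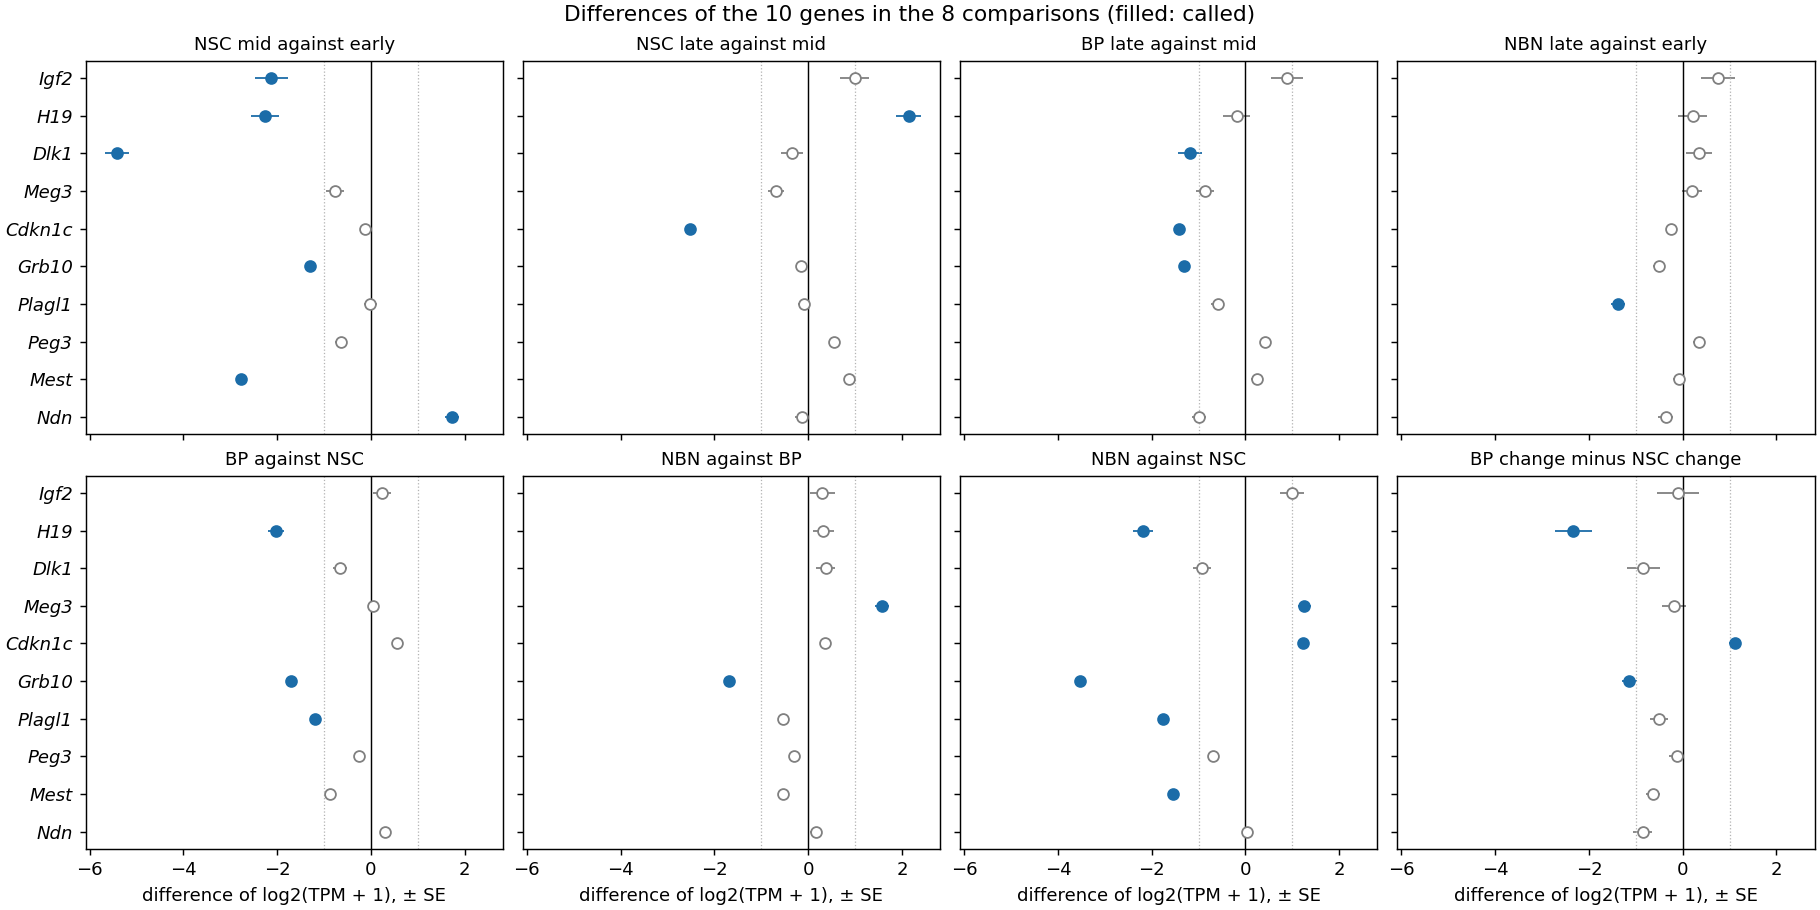
Differences of log2(TPM + 1) with their SE (horizontal axis) for the 10 genes (rows) in the 8 comparisons (panels), filled where called; dotted lines mark a difference of 1 in either direction. Dlk1 in mid against early NSC (-5.42) and Grb10 in NBN against NSC (-3.53) lie farthest from 0.

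Mest and Dlk1, both known as markers of early and immature tissue, showed the steepest fall. Mest, which encodes a protein of the hydrolase fold family, stood in NSC at 2108, 2102 and 2067 TPM at E10.5 and at 881, 676 and 656 TPM at E11.5. At E12.5 the 3 NSC libraries held 104, 350.5 and 169 TPM. The E10.5 libraries lay above all others of the series, and those of E11.5 above all but these. From early to mid stages Mest fell by 2.77 ± 0.11 in NSC (adjusted p 3.84e-28), and by 2.01 with E11.5 alone as the early stage. In late NSC it stood higher again, at 303, 376.5 and 413 TPM at E17.5 and 430, 406 and 347 TPM at E18.5, a difference of 0.87 ± 0.10 from mid NSC that stayed below the size needed for a call. Without PN this difference was 1.05 and was called.

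Mest was lower in the derived cells. BP libraries held 166 to 176 TPM at E12.5, within the NSC range of that day, and 87.3 to 102 TPM at E13.5, a fall that was not tested. From mid to late stages BP changed little (0.24 ± 0.11). NBN libraries lay between 76 and 99.1 TPM, with little change over time. At E18.5 the 3 NBN libraries held 87.5, 76 and 76.8 TPM, the 3 BP libraries 120, 112 and 144 TPM, and the 3 NSC libraries 347 to 430 TPM. Over the 5 stages shared by all cells, Mest was lower in NBN than in NSC by a difference of -1.54 ± 0.08 (adjusted p 1.55e-23), and NBN libraries lay below NSC libraries at each stage. With the 2 stages up to E16.5 alone the difference was -0.85 and was not called. BP against NSC gave -0.88 ± 0.07, below the size needed, and -1.42 over the stages from E17.5.

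Dlk1 encodes a membrane-bound ligand-like protein of the Notch family that keeps precursor cells undifferentiated in several tissues. NSC held 359, 354 and 307 TPM at E10.5 and 174, 254 and 435 TPM at E11.5. At E12.5 the level was 13.8, 43.2 and 10.3 TPM, and from E14.5 to E16.5 no NSC library exceeded 6.06 TPM. The fall from early to mid stages was 5.42 ± 0.26 (adjusted p 4.34e-25), and 5.25 with E11.5 alone as the early stage. Basal progenitors held 99.9, 82 and 45.6 TPM at E12.5, their first stage here, above every NSC library of that day. By E15.5 the 4 BP libraries held 0.62 to 1.26 TPM, below all 4 NSC libraries of that stage (2.48 to 6.06 TPM). Dlk1 fell in BP from mid to late stages by 1.18 ± 0.26 (adjusted p 1.18e-04), a call that ended with a pseudocount of 5 (-0.59) and with weighted libraries (-0.95). NBN libraries lay between 0.29 and 2.68 TPM at all stages.

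The early NSC libraries also differed in transcripts of mesenchyme. Summed over 12 markers of meninges and mesenchyme, the E10.5 libraries held 222, 148 and 99.2 TPM and the E11.5 libraries 31.5, 47.5 and 155.05 TPM, against 13.4 to 19.8 TPM in mid NSC, and 7 of 11 markers tested were called lower in mid NSC. Mest was 2108, 2102 and 2067 TPM in the E10.5 libraries in the same order as the sums, and within E11.5 it was highest in the library with the lowest sum. Dlk1 was highest within E11.5 in the library with the highest sum (435 TPM), and without that library its fall was 5.24. The part of other cells in the falls of Mest and Dlk1 was not tested.

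**Figure D2:**
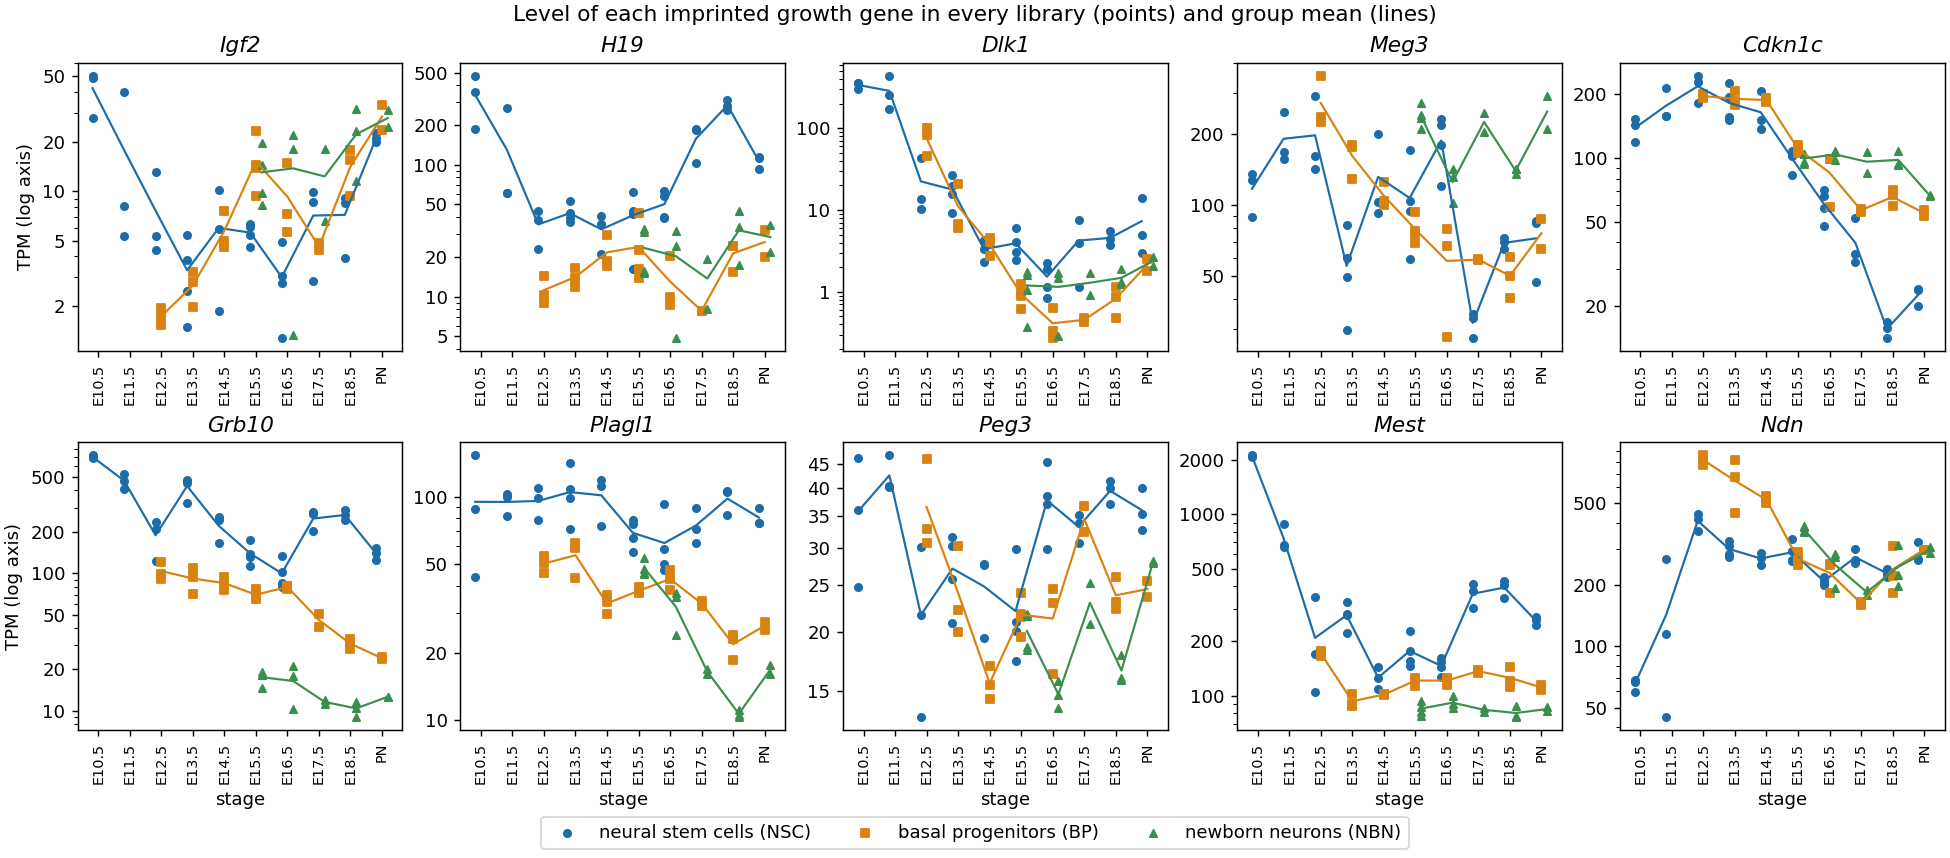
TPM on a log axis (vertical) of each of the 10 genes (panels) by stage (horizontal), with 1 point per library and lines through group means, for NSC (circles), BP (squares) and NBN (triangles). Mest and Dlk1 fall in NSC after E11.5, Cdkn1c falls in NSC to 15.7 TPM at E18.5, and Grb10 stays ordered NSC above BP above NBN in its means at every shared stage.

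Meg3, the noncoding neighbour of Dlk1, followed another course. It was higher in NBN than in BP at each of 5 stages with no overlap of libraries, a pattern that 11.8% of all genes tested share. At E17.5 the 2 NBN libraries held 246 and 205 TPM, the 2 BP libraries 58.3 and 59.4 TPM and the 3 NSC libraries 34.5, 27.4 and 33.1 TPM. The difference of NBN from BP was 1.58 ± 0.15 (adjusted p 1.01e-13). Against NSC it was 1.26 ± 0.14 (adjusted p 1.21e-11) over all 5 stages but 0.35, and not called, over E15.5 and E16.5. In NSC the level swung between stages, with 121 to 232 TPM at E16.5 and 27.4 to 34.5 TPM at E17.5. Summed markers of postmitotic neurons in NSC libraries also differed between those days, with 4188 to 6703 TPM at E16.5 and 2071 to 3229 TPM at E17.5, and their part in this swing was not tested. In BP the level was highest at E12.5 (353, 237 and 226 TPM) and was 50.1, 40.4 and 60.1 TPM at E18.5, although the late against mid difference of -0.87 ± 0.19 did not reach the size for a call.

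The balance of the Dlk1 and Meg3 pair turned over in NSC between E11.5 and E12.5. The ratio of Meg3 to Dlk1 group means in NSC was 0.35 at E10.5, 0.67 at E11.5 and 8.83 at E12.5. After that the ratio was uneven, with 3.11 at E13.5, 39.8 at E14.5, 27.4 at E15.5 and a peak of 123 at E16.5. At E17.5, E18.5 and PN the ratio in NSC was 7.50, 15.2 and 9.90. In NBN it lay between 94.4 and 200.3 in all 5 groups. Dlk1 exceeded Meg3 in all 6 libraries of early NSC and in none of the other groups by mean. The ratios from E15.5 onward rest on Dlk1 levels of a few TPM.

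**Figure D3:**
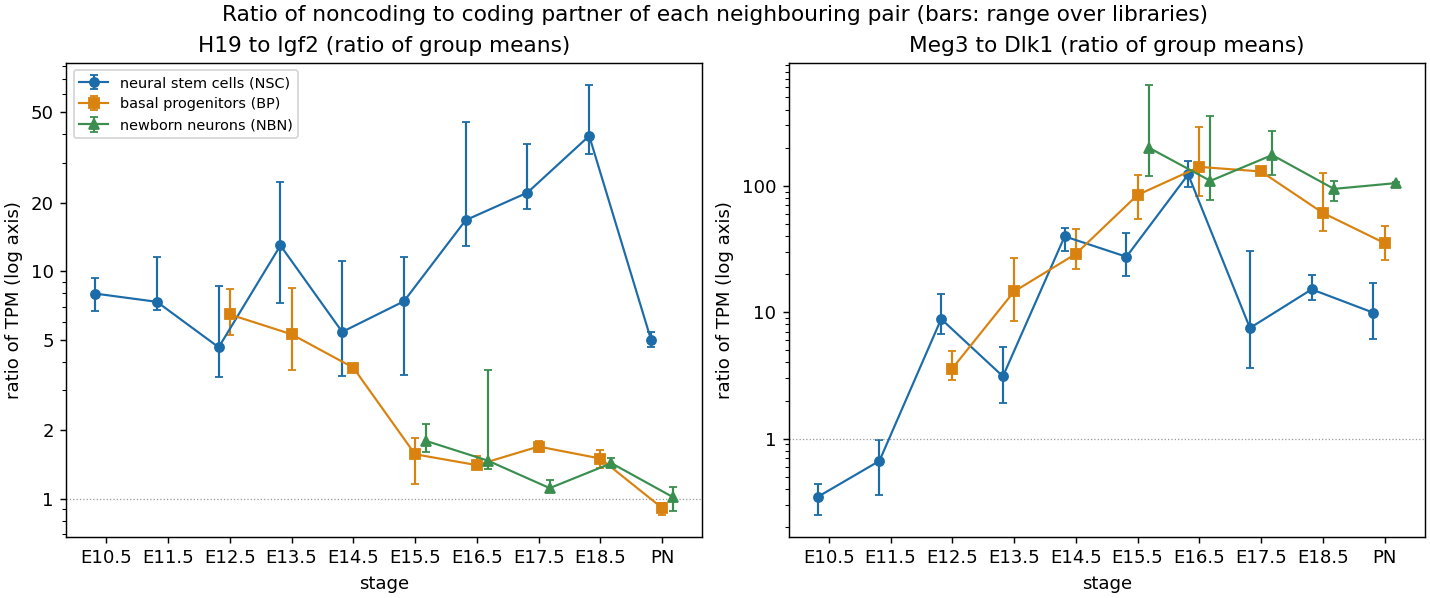
Ratio of group mean TPM on a log axis (vertical) of H19 to Igf2 (left) and of Meg3 to Dlk1 (right) by stage (horizontal) for NSC, BP and NBN; bars span the ratios of single libraries. H19 to Igf2 reaches 39.4 in NSC at E18.5 and stays below 2 in BP and NBN means from E15.5.

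Igf2 encodes a growth factor that signals through the IGF1 receptor, and H19 is the noncoding RNA that shares its enhancers. In NSC, Igf2 stood at 50, 48.9 and 27.9 TPM at E10.5 and fell to 1.49 to 10.2 TPM at the mid stages, a fall of 2.12 ± 0.35 (adjusted p 2.51e-07). H19 stood at 470, 356 and 188 TPM at E10.5 and at 16.1 to 62.5 TPM at the mid stages, a fall of 2.25 ± 0.30 (adjusted p 1.73e-09). E11.5 replicate 3 stood apart, with 39.9 TPM of Igf2 and 270 TPM of H19 against 5.3 and 8.15 TPM and 61 and 61.2 TPM in the other replicates. The same library held the highest mesenchyme sum (155.05 TPM) and red blood cell sum (8531 TPM) of its group. Without it the falls were 1.72 for Igf2 and 1.90 for H19, and with E11.5 alone as the early stage they were 1.29 and 1.43, all of them called.

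By the ratio of group means the 2 neighbours lay farthest apart in NSC at E17.5 and E18.5. H19 rose from mid to late stages by 2.14 ± 0.26 (adjusted p 3.37e-10), to 103, 184.7 and 185.5 TPM at E17.5 and 308, 280.4 and 260 TPM at E18.5, and was 112, 92.4 and 114 TPM at PN. Igf2 in the same libraries was 2.83, 8.61 and 9.85 TPM at E17.5 and 9.07, 8.51 and 3.92 TPM at E18.5, and reached 22.6, 19.8 and 21 TPM only at PN. Its difference from mid NSC was 0.995 ± 0.31, just below the size for a call, 1.14 with a pseudocount of 0.1 and 0.48 without PN. The ratio of H19 to Igf2 was 22.2 at E17.5, 39.4 at E18.5 and 5.02 at PN. Mesenchyme sums were 13.4 to 19.8 TPM in mid NSC and 47.7 to 221 TPM in late NSC, with the highest at PN. Of 11 mesenchyme markers tested, 4 were called higher in late NSC and none lower. Their part in the changes of H19 and Igf2 was not tested.

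H19 was lower in both derived cell types over the shared stages. Its BP libraries overlapped with NSC libraries at E14.5 and E15.5, and its NBN libraries did so at E15.5. At E18.5 the BP libraries held 24.2, 15.3 and 24.2 TPM and the NBN libraries 44.5, 33.5 and 17.4 TPM, all below the lowest NSC library. The difference was -2.02 ± 0.17 for BP against NSC (adjusted p 7.38e-16) and -2.18 ± 0.22 for NBN against NSC (adjusted p 2.16e-13). H19 did not rise in late BP (-0.19 ± 0.29), and its change there differed from that in NSC by -2.33 ± 0.39 (adjusted p 1.49e-06). Mesenchyme sums at E18.5 were 51.8 to 67.5 TPM in NSC and 33.8 to 55.2 TPM in BP, and at E17.5 they were 47.7 to 65.4 TPM and 13.1 to 14.6 TPM. At E12.5 the sums were 18 to 43.6 TPM in NSC and 3.79 to 5.88 TPM in BP, and at E13.5 16.8 to 19.8 TPM and 5.30 to 7.15 TPM, while H19 means in NSC were 3.15 and 3.05 times those in BP. The sums thus also differed between NSC and BP at several stages, and their part in the H19 differences was not tested.

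In the BP and NBN groups given next, Igf2 and the mesenchyme sum were low or high together. In BP these groups are the first and the last stage, and no association over all libraries was computed. BP libraries of E12.5 held 1.52 to 1.95 TPM of Igf2 and 3.79 to 5.88 TPM of the mesenchyme sum, and those of PN held 23.4 and 33.4 TPM of Igf2 and 104 and 219 TPM of the sum. Within NBN at E16.5, replicate 1 held 1.32 TPM of Igf2, 4.87 TPM of H19 and a sum of 3.37 TPM, against 18 and 21.9 TPM, 24.3 and 31.6 TPM, and sums of 36.8 and 45.1 TPM in the other replicates. The sum over 12 endothelial and pericyte markers moved likewise, from 2.72 to 4.81 TPM in BP at E12.5 to 71.6 and 113 TPM at PN. None of the 12 mesenchyme markers was at 0 in all BP or all NBN libraries. Igf2 was not called in any of the 8 comparisons other than mid against early NSC, with 0.89 ± 0.34 in late against mid BP and 0.995 ± 0.25 in NBN against NSC. The last of these was called under another scaling, at 1.10 (median ratio) and 1.31 (quantile). The part of mesenchymal or vascular RNA in the Igf2 levels was not tested.

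**Figure D4:**
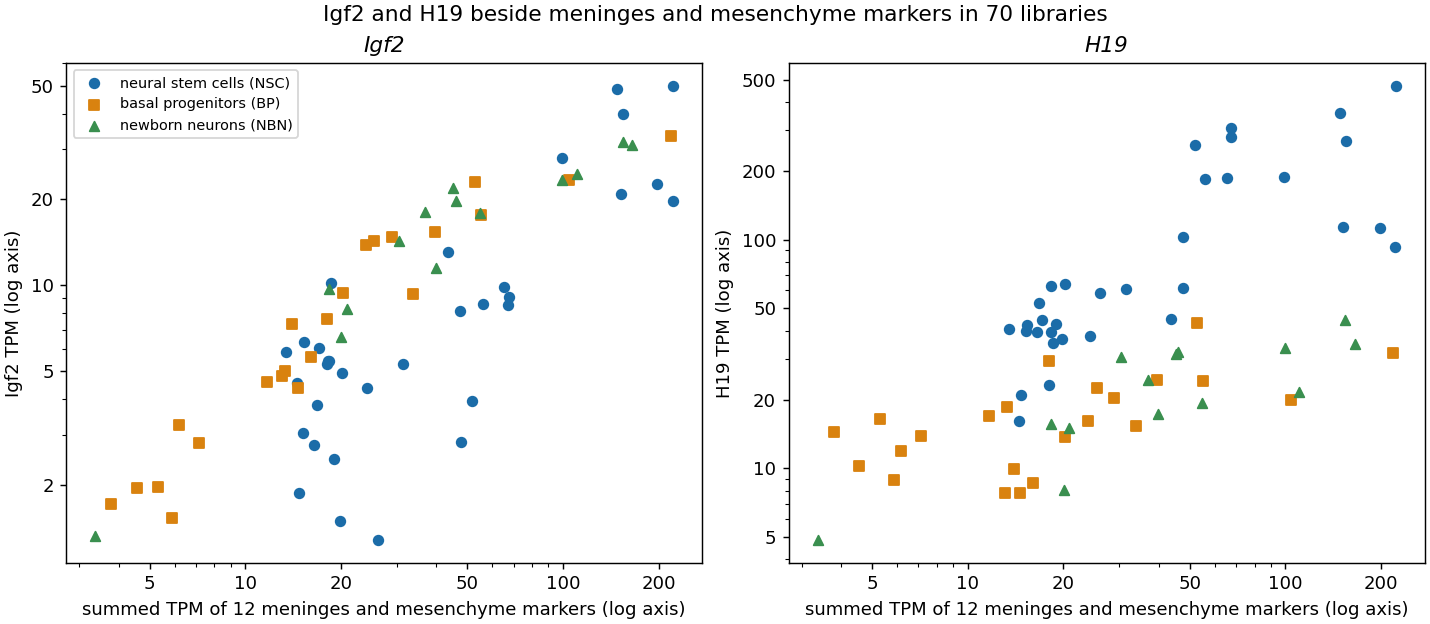
TPM of Igf2 (left) and H19 (right) on a log axis (vertical) against the summed TPM of 12 meninges and mesenchyme markers on a log axis (horizontal), 1 point for each of the 70 libraries. BP and NBN libraries spread along 1 band for Igf2, while H19 in NSC of E17.5 and E18.5 (103 to 308 TPM) lies above BP and NBN libraries with like marker sums.

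Cdkn1c encodes p57, an inhibitor of cyclin-dependent kinases that holds cells out of the cycle. In NSC it stood at 118, 143 and 153 TPM at E10.5 and at 181, 229 and 243 TPM at E12.5, and the group means were then lower at each stage up to E18.5, with 14.2, 16.9 and 15.9 TPM. PN libraries held 20.1, 24.2 and 23.9 TPM. Late against mid NSC differed by -2.51 ± 0.09 (adjusted p 1.00e-31). In BP the 3 libraries of E14.5 held 191, 188 and 184 TPM and those of E18.5 held 70.8, 66.6 and 59.1 TPM, a fall of 1.41 ± 0.10 from mid to late stages (adjusted p 3.26e-18). The fall was smaller in BP than in NSC by 1.11 ± 0.13 (adjusted p 2.16e-10), a call that ended with a pseudocount of 5 (0.98).

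At E15.5 NSC overlapped with both other cell types in Cdkn1c while NBN lay just below BP, and at E18.5 all 3 lay apart. At E15.5 the ranges were 83.3 to 107 TPM in NSC, 105.7 to 115.1 TPM in BP and 93.3 to 104.6 TPM in NBN. At E18.5 the NBN libraries held 93.6, 108 and 92.6 TPM, all above BP, which lay above NSC. NBN exceeded NSC by 1.23 ± 0.07 over the 5 shared stages (adjusted p 1.79e-22), but by 0.39 over E15.5 and E16.5, where it was not called, and by 1.79 from E17.5. NBN did not change between their own early and late stages by the size of a call (-0.25 ± 0.10). The sum of 8 astroglial markers in NSC was 144 to 288 TPM at mid stages and 1087 to 5102 TPM at late stages, and all 8 were called higher in late NSC. All 6 markers of oligodendrocyte precursors were called higher there too. Of 14 markers of postmitotic neurons, 11 were called lower there and none higher. Their sums were 3336 to 7489 TPM in NSC at mid stages and 1354 to 3229 TPM at late stages. The part of all these cells in the fall of Cdkn1c was not tested.

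Grb10 encodes an adaptor protein that binds the insulin and IGF1 receptors and restrains their signal. It was graded over the cell types. At E18.5 the NSC libraries held 286, 265 and 246 TPM, the BP libraries 31.1, 28 and 33.2 TPM and the NBN libraries 11.7, 9 and 10.5 TPM. NBN lay below BP, and BP below NSC, without overlap at every shared stage except E16.5, where BP libraries (77 to 80.8 TPM) fell within the NSC range (79.7 to 134 TPM) in part. BP against NSC gave -1.70 ± 0.07 (adjusted p 5.72e-29), NBN against BP -1.69 ± 0.09 (adjusted p 9.75e-23) and NBN against NSC -3.53 ± 0.09 (adjusted p 1.00e-38). The means of NBN and NSC lay farther apart at E18.5 (10.4 and 266 TPM) than at E15.5 (17.6 and 139 TPM), a difference that was not tested.

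Over time Grb10 in NSC went from 719, 700.3 and 687 TPM at E10.5 to 122 to 235 TPM at E12.5, 323 to 477 TPM at E13.5, 79.7 to 134 TPM at E16.5 and 204 to 277 TPM at E17.5. The course was thus not even, with E12.5 libraries below those of E13.5. The fall from early to mid stages was 1.29 ± 0.12 (adjusted p 4.22e-14), and 1.00 with E11.5 alone as the early stage. Late against mid NSC gave -0.16 ± 0.11 and was not called. In BP it fell by 1.30 ± 0.12 from mid to late stages (adjusted p 1.08e-13), reaching 23.8 and 24.5 TPM at PN. The change in BP minus the change in NSC was -1.14 ± 0.16 (adjusted p 2.66e-08). Markers of postmitotic neurons also changed in NSC, with 13 of 14 called higher in mid against early NSC. Their sums differed between NSC of E16.5 and E17.5 too, as given with Meg3 above. The part of these markers' cells in the Grb10 course was not tested.

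Plagl1, the zinc finger factor, was highest in NSC by group mean at every shared stage, as were H19, Mest and Grb10. NSC libraries lay between 43.7 and 153 TPM with no called change over time, and the median NSC library held 82.7 TPM, against 37.4 TPM in BP and 20.8 TPM in NBN. BP against NSC gave -1.18 ± 0.08 (adjusted p 5.11e-19), and -0.93 over the stages up to E16.5, where it was not called. NBN against NSC gave -1.75 ± 0.10 (adjusted p 8.67e-22), and -0.70, not called, up to E16.5. In NBN it fell with age, from 44.9, 45.7, 47.6 and 53.2 TPM at E15.5 to 10.5, 11.2 and 10.3 TPM at E18.5, by 1.38 ± 0.15 between the early and late stages (adjusted p 1.87e-10). The 4 NBN libraries of E15.5 lay above the 4 BP libraries of that day (37.1 to 39.5 TPM), and from E16.5 NBN libraries lay below BP libraries. It was the 1 gene of the 10 that was called over time in NBN. Over the same step 6 of 10 microglial and 4 of 8 astroglial markers were called higher in NBN, with microglial sums of 5.36 to 38.8 TPM at the early and 29.9 to 86.0 TPM at the late stages, and their part in the fall of Plagl1 was not tested.

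Counted over stages, Grb10, Mest and Plagl1 had NBN libraries below all NSC libraries at each of 5 stages, as did 15.2% of all genes tested. Grb10 and Mest also had NBN libraries below BP libraries at each of the 5, as did 18.6% of all genes. Plagl1, Mest and Grb10 had BP libraries below NSC libraries at 7 of 8 stages, where 8.27% of all genes had them below at 7 or 8. The exception was E16.5 for Plagl1 and Grb10 and E12.5 for Mest.

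Peg3 encodes another zinc finger protein. Its libraries spanned 13.2 to 46.8 TPM in NSC, 14.4 to 46 TPM in BP and 13.8 to 28.1 TPM in NBN. It was called in none of the 8 comparisons at the size required, although limma gave an adjusted p below 0.05 in 7 of them before the size was asked. The farthest from 0 were NBN against NSC (-0.69 ± 0.09) and mid against early NSC (-0.64 ± 0.12). At E18.5 the libraries were ordered without overlap, with NSC at 40, 41.3 and 37.1 TPM, BP at 23.1, 22.4 and 26.1 TPM and NBN at 17.9, 15.8 and 16 TPM.

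Ndn, which encodes necdin, a protein of postmitotic neurons known to restrain proliferation, was the 1 gene that rose in early NSC. It stood at 59.4, 66.9 and 68.3 TPM at E10.5, at 44.9, 268 and 114 TPM at E11.5 and at 368, 446 and 419 TPM at E12.5. The rise from early to mid stages was 1.73 ± 0.16 (adjusted p 1.54e-14). Its highest levels were in BP, with 859, 821 and 768 TPM at E12.5, 816, 675 and 447 TPM at E13.5 and 516, 501.5 and 546 TPM at E14.5, above every NSC library of the same days. From E15.5 the BP libraries lay between 159 and 308 TPM, a late against mid difference of -0.99 ± 0.15 that missed the size for a call and was -1.19 without PN. In mid against early NSC, 13 of 14 markers of postmitotic neurons and 6 of 8 markers of basal progenitors were called higher as well. Their part in the rise of Ndn was not tested.

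Neighbours in the order of the 23 group means mostly overlapped. Of the 22 neighbouring pairs per gene, the library ranges were apart in 8 for Grb10, 5 for Ndn, 4 each for Cdkn1c, Plagl1 and Mest, 3 for H19, 2 each for Dlk1, Meg3 and Peg3, and 1 for Igf2. For Igf2, H19, Dlk1, Mest and Grb10 the highest group was NSC of E10.5, with means of 42.3, 338, 340.2, 2093 and 702 TPM. The highest groups were BP of E12.5 for Meg3 (272 TPM) and Ndn (816 TPM), NSC of E12.5 for Cdkn1c (218 TPM), NSC of E13.5 for Plagl1 (104.74 TPM) and NSC of E11.5 for Peg3 (42.6 TPM). The lowest were NBN of E18.5 for Grb10, Plagl1 and Mest, at 10.4, 10.7 and 80.1 TPM, NSC of E18.5 for Cdkn1c (15.7 TPM) and NSC of E10.5 for Ndn (64.9 TPM). For Dlk1 the lowest mean was 0.41 TPM, in BP of E16.5, and for Igf2 1.73 TPM, in BP of E12.5. Per transcript length, Mest in E10.5 NSC was thus the most abundant of the 10, and Dlk1 in E16.5 BP the least.

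**Figure D5:**
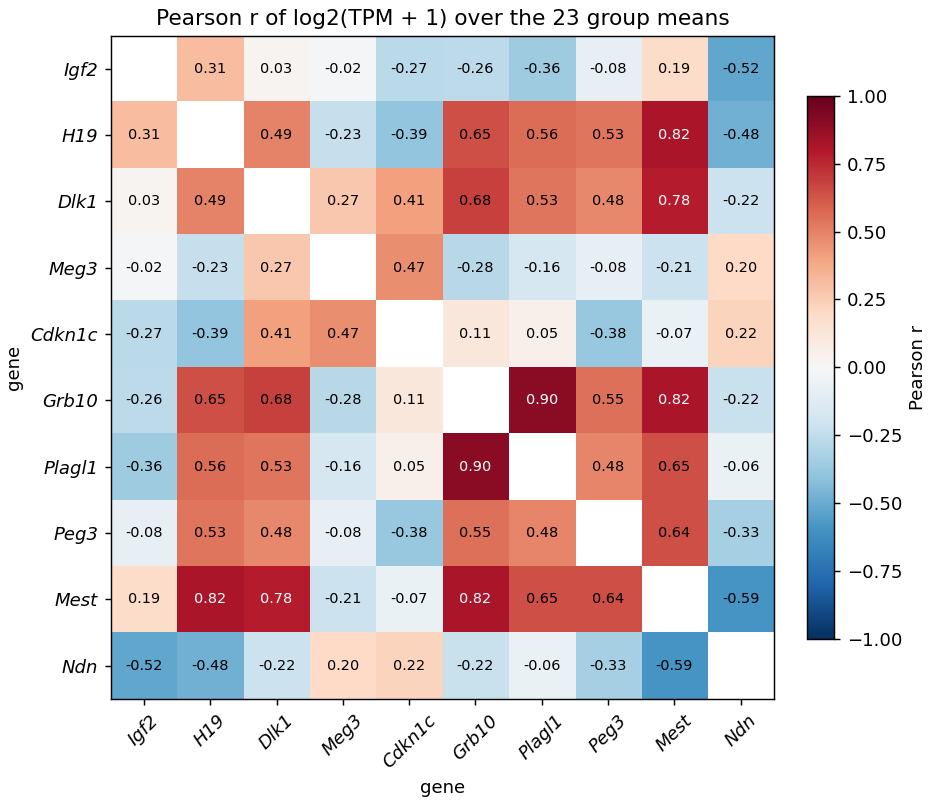
Pearson r of log2(TPM + 1) over the 23 group means for each pair of the 10 genes (rows and columns), coloured from -1 to 1. Plagl1 and Grb10 are most alike (0.90) and Mest and Ndn most unlike (-0.59).

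The courses of the 10 genes were compared over the 23 group means, as a description, since the groups share cell types and stages. Plagl1 and Grb10 were most alike (r = 0.90), followed by H19 and Mest (0.82) and Mest and Grb10 (0.82). The neighbours Igf2 and H19 gave 0.31, Dlk1 and Meg3 0.27, and Igf2 and Cdkn1c -0.27. Ndn and Mest ran opposite (-0.59). Chromosomal neighbours were thus less alike than several genes on different chromosomes.

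Among all tested genes with at least 10 TPM in their highest group, the 3 most like each of the 10 were taken. For Igf2 these were Vtn (r = 0.87), a plasma and pericyte protein, and the collagen genes Col4a2 (0.87) and Col1a2 (0.87). Vtn and Col1a2 are also in the vessel and mesenchyme lists used above. For H19 they were Ctgf (0.96), S100a11 (0.94) and Ano1 (0.94), for Dlk1 Fndc3c1 (0.95), Hsd11b2 (0.94) and Psmc2 (0.94), and for Mest Prpf4 (0.96), Prelid2 (0.96) and Zdhhc6 (0.96). Grb10 was most like Mcm2 (0.98), a subunit of the replicative helicase, Limd1 (0.97) and Unc119b (0.97). Plagl1 was most like Lpar1 (0.92), Vim (0.92), the intermediate filament of radial glia, and Sox3 (0.92), a transcription factor of neural progenitors. Peg3 was most like Cep152 (0.90), Trmt10a (0.87) and Blm (0.85), Cdkn1c like Pcdh19 (0.86), Pcbp4 (0.86) and Timm8b (0.86), Ndn like Rnf5 (0.90), Hnrnpa0 (0.86) and Abhd8 (0.85), and Meg3 like Fam169a (0.76) and Hras (0.75). Of the 30 genes taken, 23 remained with a pseudocount of 0.1 and 11 with rank correlation.

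A wider list of 50 other imprinted genes had 45 in the table and 39 tested. In mid against early NSC 8 of the 39 rose and 8 fell, beside 13.7% higher and 5.26% lower among all genes. The list's median was 0.05 against 0.14 for all genes, so it did not share the downward median of the 10. Peg10, a gene derived from a retrotransposon, fell by 2.40 ± 0.15, Mirg, a noncoding RNA of the Dlk1 and Meg3 domain, by 2.57 ± 0.17 and Asb4 by 2.45 ± 0.22, while Osbpl5, a lipid transfer protein, rose by 2.50 ± 0.10 and Usp29, the neighbour of Peg3, by 1.69 ± 0.19. In late against mid NSC 3 rose and 2 fell: Nap1l5 rose by 1.71 ± 0.13, the proteoglycan Dcn by 1.44 ± 0.24 and the tetraspanin Cd81 by 1.43 ± 0.05, and Nnat fell by 1.21 ± 0.07 and Osbpl5 by 1.06 ± 0.09. In late against mid BP none rose and 1 fell, Magel2, a relative and neighbour of Ndn, by 2.17 ± 0.18. In NBN the list gave 1 fall over time, that of Rasgrf1 (-1.21 ± 0.18). Among all genes 9.31% rose and 2.45% fell in late against mid NSC, and 3.29% rose and 1.42% fell in late against mid BP. Over time in NBN 1.27% of all genes rose and 1.06% fell.

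Between cell types 2 of the 39 were called in BP against NSC, 3 in NBN against BP and 7 in NBN against NSC. Among all genes 8.09%, 9.42% and 19.1% were called in these comparisons. In BP against NSC Usp29 was higher (1.19 ± 0.11) and Peg12 lower (-1.61 ± 0.05). In NBN against BP Nap1l5 (1.91 ± 0.11) and Mirg (1.36 ± 0.13) were higher and Osbpl5 lower (-1.08 ± 0.08). In NBN against NSC 5 of 39 were higher and 2 lower, the latter Peg12 (-2.24 ± 0.06) and Peg10 (-1.58 ± 0.11), beside 6.51% higher and 12.6% lower among all genes. Mirg, like Meg3, was thus higher in NBN than in BP and NSC, with 8.87 TPM on average in NBN and 2.84 TPM in BP. The change over time differed between BP and NSC for 3 of 39, beside 9.7% of all genes. These were Osbpl5 (1.23 ± 0.14), Nap1l5 (-2.23 ± 0.19) and Magel2 (-1.20 ± 0.24).

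Of 28 genes of IGF and insulin signalling, of which Igf2r is also in the wider imprinted list, 26 were tested, among them receptors, binding proteins and adaptors. In mid against early NSC 6 of the 26 rose and 7 fell, beside 13.7% and 5.26% of all genes. For the other steps over time the shares of all genes are those given with the imprinted list above. Htra1, a secreted protease, rose by 2.69 ± 0.18 and Pik3r1, a subunit of PI3 kinase, by 1.86 ± 0.10, while the adaptor Irs4 fell by 3.10 ± 0.11, Igfbp5, a secreted IGF binding protein, by 1.74 ± 0.15 and Igf2bp1, an RNA-binding protein first found on Igf2 transcripts, by 1.60 ± 0.08. In late against mid NSC 6 rose and 2 fell, with Htra1 up by 2.85 ± 0.16, Igfbp5 by 1.90 ± 0.13 and Igfbp3 by 1.22 ± 0.16, and Igf2bp2 down by 1.63 ± 0.10 and Igf2bp1 by 1.32 ± 0.07. In late against mid BP 4 rose and 5 fell, and all of Igf2bp1 (-1.44 ± 0.08), Igf2bp2 (-2.92 ± 0.11) and Igf2bp3 (-1.43 ± 0.08) fell. In NBN 1 rose over time, Igfbp7 (1.13 ± 0.24), and 3 fell, Igfbp3 (-2.58 ± 0.19), Igf2bp2 (-1.89 ± 0.12) and Pappa2 (-1.28 ± 0.17). The receptors Igf1r and Igf2r, singled out here after their values were seen, were called in none of the 8 comparisons.

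Between cell types this list gave 1 higher and 2 lower in BP against NSC, the latter Igfbp5 (-2.78 ± 0.08) and Htra1 (-2.25 ± 0.10). In NBN against BP Igfbp3 (2.57 ± 0.14) and Grb14, the close relative of Grb10 (1.31 ± 0.09), were higher and the adaptor Irs1 lower (-1.16 ± 0.08). In NBN against NSC Grb14 alone was higher (1.16 ± 0.09) and 3 were lower. Grb14 and Grb10 thus differed in direction between NBN and the other cells, with Grb14 at 18.1 TPM and Grb10 at 13.7 TPM on average in NBN, and Grb14 at 7.57 TPM and Grb10 at 179 TPM in NSC over the same stages. The change over time was lower in BP than in NSC for 4 of 26, among them Igfbp3 (-2.52 ± 0.23) and Igf2bp2 (-1.28 ± 0.15), beside 6.85% of all genes. Among all genes 1.87% were higher and 6.22% lower in BP than in NSC. In NBN against BP 4.36% were higher and 5.06% lower, and in NBN against NSC 6.51% and 12.6%.

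Of 14 other CDK inhibitors, cyclins of the G1 phase and their kinases, 13 were tested. In mid against early NSC 3 rose, the inhibitors Cdkn1b (1.91 ± 0.06) and Cdkn2c (1.38 ± 0.14) and the kinase gene Cdk6 (1.30 ± 0.15), and 3 fell, Ccnd1 (-2.96 ± 0.12), Ccne1 (-2.11 ± 0.09) and Ccnd3 (-1.65 ± 0.08). In late against mid NSC, where Cdkn1c fell, 4 rose and none fell, among them Cdkn2c (1.68 ± 0.12), Cdk6 (1.53 ± 0.13) and Ccnd2 (1.44 ± 0.13), and the list's median was 0.80 against 0.12 for all genes. In late BP Cdk6 rose (1.63 ± 0.15) and Cdkn1a (-1.24 ± 0.13) and Ccnd1 (-1.13 ± 0.12) fell. Over time in NBN none was called. In the cell type comparisons none was higher, and 6 were lower in BP than in NSC, 5 in NBN than in BP and 8 in NBN than in NSC, led in the last by Ccnd2 (-3.75 ± 0.10), Cdkn2c (-3.75 ± 0.10) and Cdk2 (-3.27 ± 0.07). Cdkn1c, higher in NBN than in NSC, thus ran against all called genes of this list in that comparison. Among all genes 6.22% were lower in BP than in NSC, 5.06% in NBN than in BP and 12.6% in NBN than in NSC. From early to mid NSC 13.7% of all genes rose and 5.26% fell, and from mid to late NSC 9.31% and 2.45%. In late against mid BP 3.29% rose and 1.42% fell.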

How the data were processed

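Gene expression was measured by RNA sequencing of sorted cells in 70 libraries. The authors deposited TPM for each gene, which they estimated with kallisto 0.43.0; the submitters' processing notes list GRCm38.p2 and mm10 as builds; per the labels' protocols, sequencing gave single-end reads of short length. TPM have a fixed sum per library, so strong rises in some genes lower the rest, and depth, counting intervals and detection limits could not be derived. Reads shared by overlapping transcripts cannot be told apart by gene.

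All columns matched samples by name. The 10 genes were found by symbol; their coordinates are those of the GRCm38 annotation for the same identifiers. The 15508 of 23078 genes whose mean reached 1 TPM in any group were fitted as log2(TPM + 1) with limma 3.58.1 in R 4.3.3, with 1 mean per group, 47 residual degrees of freedom, moderated variances with a trend, and Benjamini-Hochberg adjustment over all genes tested. Simulated data with known changes were used to test it. Adjusted p-values below are from this fit. The members and gene lists were chosen with earlier results of these data known, so no set test and no p over a list is given.

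Genes of the 3 wider lists were named if among the 3 largest called differences per direction, list and comparison with at least 5 TPM on the higher side. Likeness used group means of genes with at least 10 TPM in the highest group, and the 3 highest Pearson r per gene. A few genes that these rules take are not reported here. H19 and Cdkn1c had no promoter entry. Alternatives covered the pseudocount (0.1 and 5), filter, scaling, variance model, library weights, libraries fitted, a sex term, replicate block, stage windows and each library left out; E11.5 alone as the early window and the late window without PN were chosen after seeing the data.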

Additional observations from a re-analysis of the deposited data

Results flagged for a closer look

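Grb10 in NSC of E13.5 had 1 library far from the other 3: replicate 1 held 323 TPM, against 454 to 477 TPM. Groups of 4 libraries were examined for this, 5 groups for each of the 10 genes or 50 in all, and this was the 1 that stood out. Chance marks about 1 in 20 such groups.

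The change from mid to late stages differed between BP and NSC for 3 of the 10 genes, by limma's test of the difference itself. For H19 the change in BP minus the change in NSC was -2.33, since H19 rose in NSC and was not called in BP. For Grb10 it was -1.14, with a fall in BP and no called change in NSC. For Cdkn1c it was 1.11, with a larger fall in NSC than in BP. Astroglial and oligodendrocyte precursor markers rose in late NSC beside these changes, with all 8 and all 6 markers called higher. In the test of BP against NSC change the same markers were all called lower. Of 14 markers of postmitotic neurons, 11 were called lower in late NSC, and in that test 7 were called higher and none lower. Their part in the 3 differences was not tested.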

How the results depend on the processing

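Of 337 values of called differences of the 10 genes under other settings 329 kept their call, 8 lost it and none reversed, and none of 710 values with 1 library left out lost it. The 8 are given in the report beside their results. Differences that were not called kept their side in 657 of 693 values; 23 became called and 13 reversed.

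The reversals all concerned differences that were not called. In mid against early NSC, Plagl1 gave 0.16 with library weights and 0.15, and Cdkn1c 0.25, with E12.5 to E14.5 as mid stages. With E12.5 to E16.5 as mid stages, late against mid gave 0.0043 for Plagl1 and 0.16 for Grb10 in NSC and 0.067 for H19 in BP, and the difference of changes gave 0.10 for Igf2 and 0.21 for Meg3. Without PN Grb10 in late against mid NSC gave 0.13. Up to E16.5, Meg3 in BP against NSC gave -0.039 and Igf2 in NBN against BP -0.069. From E17.5, Ndn gave -0.22 in BP against NSC and -0.14 in NBN against NSC. With 1 library left out, Plagl1 in mid against early NSC ranged from -0.24 to 0.21, Igf2 in the difference of changes from -0.26 to 0.078, and H19 in late against early NBN from -0.17 to 0.45, the lowest without NBN E16.5 replicate 1. The cause was not tested.

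Counts of all genes called depended on the pseudocount. With 0.1 they were 2788 in late against mid NSC, 1534 in late against mid BP, 893 in late against early NBN, 2031 in BP against NSC and 2256 in NBN against BP, against 1824, 730, 361, 1255 and 1461. With 5 they were 1625, 918, 285, 132, 634, 729, 1791 and 780 in mid against early NSC, late against mid NSC, late against mid BP, late against early NBN, BP against NSC, NBN against BP, NBN against NSC and the difference of changes, against 2944, 2961 and 1505 for the first and the last 2. By stages, BP against NSC gave 592 over stages to E16.5, but 2865 over those after it, NBN against NSC gave 1567 up to E16.5, and mid against early NSC gave 1850 with E11.5 alone.

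Counts among the 10 genes moved too. NBN against NSC gave 3 up to E16.5, beside 1567 of all 15508 genes. BP against NSC gave 6 from E17.5, beside 2865 of all genes. Late against early NBN gave 1 to 2 with 1 library left out, beside 337 to 389 of all genes, and 2 without NBN E16.5 replicate 3. Late against mid BP gave 5 without PN, and late against early NBN gave 2 with E18.5 and PN as late stages. For these late windows the counts of all genes are not given here. The moves can thus not be read as particular to the 10 genes. The named most alike genes kept 11 of 30 under rank correlation. Among all called genes the share that was higher fell from 72.3% to 55.6% (median ratio) or 52.1% (quantile) in mid against early NSC. Under quantile scaling it went from 79.2% to 57.8% in late against mid NSC, from 69.9% to 49.9% in late against mid BP, from 23.1% to 33.3% in BP against NSC and from 34.1% to 49.4% in NBN against NSC.

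Whether replicate numbers pair the samples was not settled. Deviations of same-numbered libraries correlated over 0.1 in 9 of 23 pairs of BP and NSC, 8 of 14 of NBN and BP and 1 of 14 of NBN and NSC. In these, 7, 8 and 2 libraries were closest to their own number. The highest r was 0.45, 0.46 and 0.25. In groups of 2 libraries the deviations mirror each other, so these counts cannot decide the question. With the replicate number as a block the counts of genes called were 2964 in mid against early NSC and 1259 in BP against NSC. No call on the 10 genes changed. That block gives each number the same effect in all stages and cell types, so it cannot model pairing within a stage. Depth is unknown and its effect on low genes such as Dlk1 after E15.5 could not be set.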
